A study of Mus musculus with 6 samples.

Results

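The glandular kallikreins are serine proteases encoded side by side on mouse chromosome 7, and 5 of their genes, Klk1, Klk1b3, Klk1b4, Klk1b5 and Klk1b11, were followed here in pancreatic islets of pregnant and nonpregnant mice. They were picked by symbol from the 19940 genes of the authors' deposited table because their group means differed, so the ratios below describe that choice and are not support for it. RNA of hand-picked islets of C57BL6/J mice was sequenced in 3 samples at gestational day 14.5 and in 3 samples of nonpregnant littermates, and no genetic change or drug is named in the labels for either group. All islets had been freed with an enzyme solution, Liberase TL with DNase I. The design text speaks of 5 animals in each group, and nothing in the labels says whether a sample came from 1 animal. The table gives 1 mean of reads for each gene and group, so no value per sample and no spread can be shown, and the p-values are the authors' own. The sources used here do not describe their test, and if the samples are not separate animals the p-values may measure technical spread.

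Klk1 is tissue kallikrein, also called glandular or pancreatic kallikrein, which cuts kininogen to release kinins, short peptides that act on bradykinin receptors. In rodents the gene has been duplicated many times, and the copies, named Klk1b followed by a number, are best known from the salivary gland. Klk1b3 encodes an active protease, whereas the product of Klk1b4 is known to lack protease activity. Klk1b5 and Klk1b11 are further copies of less defined role. In the pancreas tissue kallikrein is a product of the exocrine acinar cells, which make digestive enzymes and surround the islets.

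The copies share so much sequence that short reads can be hard to place, so their sequences are shown before their values. In the GENCODE M21 annotation of GRCm38, the cluster spans 233.7 kb from the start of Klk1b11 to the end of Klk1, with all 5 members on the plus strand. Klk1 (ENSMUSG00000063903) lies at chr7:44225360-44229618 and Klk1b5 (ENSMUSG00000066512) at chr7:44215945-44220703. Klk1b4 (ENSMUSG00000066513) lies at chr7:44207435-44211754, Klk1b3 (ENSMUSG00000066515) at chr7:44198191-44202352 and Klk1b11 (ENSMUSG00000044485) at chr7:43995877-43999875. Each has 5 exons in the transcript used. An alignment of the 5 coding sequences had 783 columns, of which 588 (75.1%) held the same base in all 5. Over the 10 pairs of members, identity of the coding sequence ran from 84.7% to 95.1%, with a median of 88.8%. Klk1 and Klk1b5 were the closest pair, with 38 differing bases of 783, and Klk1 and Klk1b11 the most distant, with 120.

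The following 60 bases of exon 3 are the stretch in which the 5 coding sequences differ least, with 2 variable columns, and show how few bases tell the genes apart here. Capitals mark a base that differs from Klk1. Positions in Klk1 are chr7:44228740-44228799.
Klk1: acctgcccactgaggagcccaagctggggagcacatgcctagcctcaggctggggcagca
Klk1b3: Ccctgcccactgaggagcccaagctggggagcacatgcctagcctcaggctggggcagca
Klk1b4: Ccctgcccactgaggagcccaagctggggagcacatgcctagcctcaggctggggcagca
Klk1b5: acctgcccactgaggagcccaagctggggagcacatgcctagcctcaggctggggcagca
Klk1b11: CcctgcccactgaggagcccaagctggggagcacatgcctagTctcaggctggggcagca
Klk1 and Klk1b5 are identical here, and so are Klk1b3 and Klk1b4, so a read within these bases cannot be given to 1 gene of either pair. Klk1b11 carries a base that none of the other members has.

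The next 60 bases, in exon 5 near the end of the coding sequence, are the stretch with the most variable columns, 29, and show where the genes can be told apart. Capitals again mark a base that differs from Klk1, for which the positions are chr7:44229477-44229536.
Klk1: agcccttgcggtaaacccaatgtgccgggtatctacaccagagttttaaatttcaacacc
Klk1b3: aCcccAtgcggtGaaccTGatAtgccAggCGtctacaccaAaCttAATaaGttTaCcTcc
Klk1b4: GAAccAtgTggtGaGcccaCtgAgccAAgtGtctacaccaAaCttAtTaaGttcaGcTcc
Klk1b5: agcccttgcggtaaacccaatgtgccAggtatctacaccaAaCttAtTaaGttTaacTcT
Klk1b11: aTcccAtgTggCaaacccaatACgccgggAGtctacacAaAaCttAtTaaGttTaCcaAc
Klk1b5 differed from Klk1 at 9 of these bases, Klk1b11 at 17, Klk1b3 at 18 and Klk1b4 at 19.

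Klk1b4, whose product lacks protease activity, was the only member of another length, with 768 coding bases against 783 in the others. The stretch of exon 2 that holds the difference is shown for Klk1 (chr7:44227542-44227586, 45 bases) and Klk1b4 (chr7:44209627-44209656, 30 bases), with capitals on the first of 2 equally long runs, of 10 bases, that are the longest both share.
Klk1: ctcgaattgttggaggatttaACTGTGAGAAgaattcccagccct
Klk1b4: ctcaagtggACTGTGAGAAttcccaaccct
Klk1b4 is 15 bases shorter here, a multiple of a codon, so the reading frame is kept.

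Klk1 had by far the most reads of the cluster in both groups. In the authors' deposited table its mean was 931 reads in nonpregnant and 14851 reads in pregnant islets. The authors' deposited table gives this as a 16.38-fold difference, a log2 ratio of 4.03, with p = 0.000298 and an adjusted p of 0.00482. Counted per kb of annotated exon, Klk1 stood at 864 reads in nonpregnant and 13789 in pregnant islets. By that level it was number 3965 of the 19256 genes with an annotated length in the nonpregnant group and number 133 in the pregnant group.

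Klk1b5, the copy closest to Klk1, came next. In the authors' deposited table its mean was 15 reads in nonpregnant and 257 in pregnant islets, a log2 ratio of 4.06 and a 16.62-fold difference (adjusted p = 0.0144). Its reads were 1.61% of those of Klk1 in the nonpregnant group and 1.73% in the pregnant group, so the proportion between the 2 genes was nearly the same in both means.

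Klk1b3 and Klk1b4 had far fewer reads. For Klk1b3, the authors' deposited table lists 4 reads in nonpregnant and 42 in pregnant islets, a log2 ratio of 3.05 (8.28-fold, adjusted p = 0.00756). For Klk1b4 the authors' deposited table lists 1 and 48 reads in the same order, a log2 ratio of 4.88 (29.36-fold, adjusted p = 0.00802). Both were below 0.5% of the Klk1 reads in either group: Klk1b3 at 0.43% in nonpregnant and 0.283% in pregnant islets, Klk1b4 at 0.107% and 0.323%.

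Klk1b11, the member farthest from Klk1 in position and in sequence, was listed in the authors' deposited table at 1 read in nonpregnant and 56 in pregnant islets, a log2 ratio of 5.12 (34.76-fold, adjusted p = 0.00729). This was the highest ratio of the 5, and it was number 21 of the 15682 genes whose 2 means average 10 reads or more. Per kb of exon, the pregnant levels were 185 reads for Klk1b5, 64.9 for Klk1b11, 57.2 for Klk1b4 and 47.2 for Klk1b3. The nonpregnant levels per kb were 10.8 for Klk1b5, 4.50 for Klk1b3, 1.19 for Klk1b4 and 1.16 for Klk1b11. The last 3 pregnant levels lie close together and their order has no error to be set against.

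**Figure D1:**
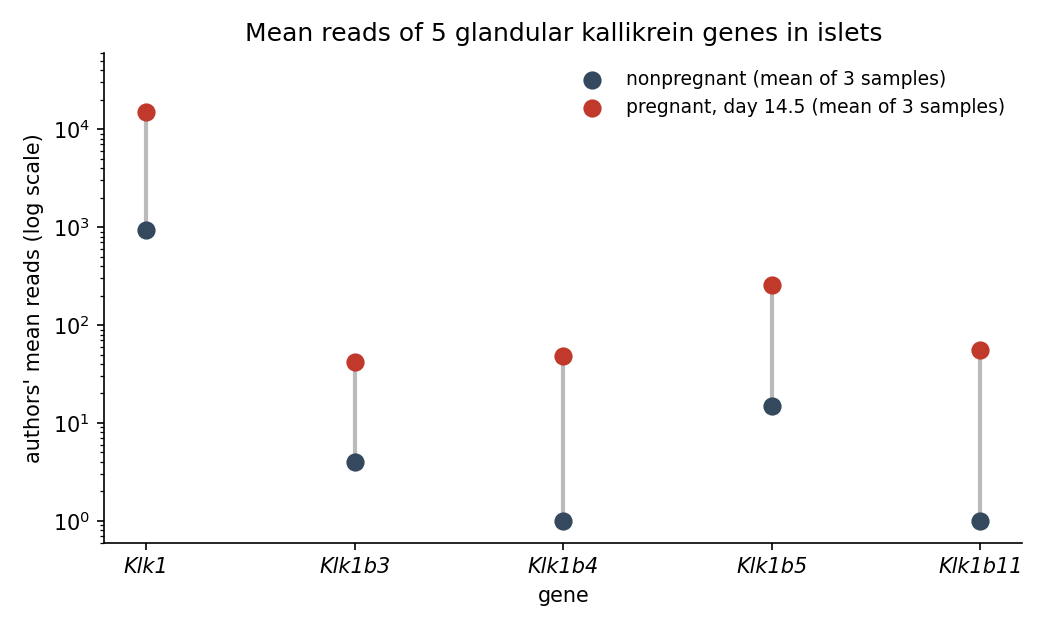
Authors' mean reads (log scale) of the 5 members, with 1 point for each group mean of 3 samples and no error bar, since values per sample are not given. Klk1 goes from 931 to 14851 reads, while the 4 other genes reach 42 to 257 reads in pregnant islets.

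The high ratios of Klk1b4 and Klk1b11 rest on very few nonpregnant reads. The deposited log2 ratios of low genes follow means over 3 libraries after 1 is added to each mean and libraries are scaled, which lets the totals behind rounded means be worked out. For both genes the only nonpregnant total that fitted was 2 reads over the 3 samples together, and for Klk1b3 it was 13 reads. The ratio of totals without the added 1 was 86.1 for Klk1b11, with a 95% interval of 23.5 to 717. For Klk1b4 it was 73.8 (20.1 to 615), for Klk1b3 9.94 (5.61 to 19.2), for Klk1b5 17.6 (13.0 to 24.3) and for Klk1 16.4 (15.7 to 17.0). These exact Clopper-Pearson intervals cover counting error only and no spread between samples, and reads copied by PCR are not independent molecules. The intervals of Klk1b3 and Klk1 overlap, so the lower ratio of Klk1b3 is within counting error. Those of Klk1b4 and Klk1b11 lie above that of Klk1, but each rests on 2 nonpregnant reads. With a pseudocount of 5 the log2 ratios of Klk1b4 and Klk1b11 were 3.14 and 3.35, below the 3.99 of Klk1. No order of the members is therefore read from these ratios. Summed over the 5 genes the means were 952 and 15254 reads, and Klk1 made up 97.8% of the sum in nonpregnant and 97.4% in pregnant islets.

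All 5 members passed the authors' adjusted p under 0.05 as higher, where 7.57% of all 19940 genes did. Since this same contrast was used to pick them, nothing is read from that count. Under a stricter adjusted p of 0.01, 4 of the 5 passed, all but Klk1b5, where 5.12% of all genes passed as higher. All 5 passed when the p-values were adjusted again over the genes averaging 10 reads or more, of which 10.1% did. The median log2 ratio of the 5 was 4.06, against -0.02 over all genes.

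Of the 14 protein-coding genes of the Klk1 family in the annotation, 9 were listed in the table used here. The values of Klk1b1, Klk1b9, Klk1b16, Klk1b21 and Klk1b22 were not analysed here. The 4 listed copies that are not members had almost no reads. Klk1b24 stood at 1 read in nonpregnant and 7 in pregnant islets, Klk1b8 at 1 and 3, Klk1b27 at 0 and 2 and Klk1b26 at 1 and 1, in the authors' deposited table. Their coding sequences were 82.2% to 86.2% identical to Klk1, while those of the 4 smaller members were 84.7% to 95.1% identical. Likeness to Klk1 and reads did not follow 1 order: Klk1b11, at 84.7%, had 56 pregnant reads, and Klk1b24, at 86.2%, had 7. Across these 8 paralogs Spearman's rho between identity to Klk1 and pregnant mean reads was 0.667, a description over genes of the same samples and 1 locus. The 4 smaller members among them were picked because their group means differed. Neither rho nor the contrast of Klk1b11 with Klk1b24 is therefore free of that choice, and nothing is concluded from them.

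**Figure D2:**
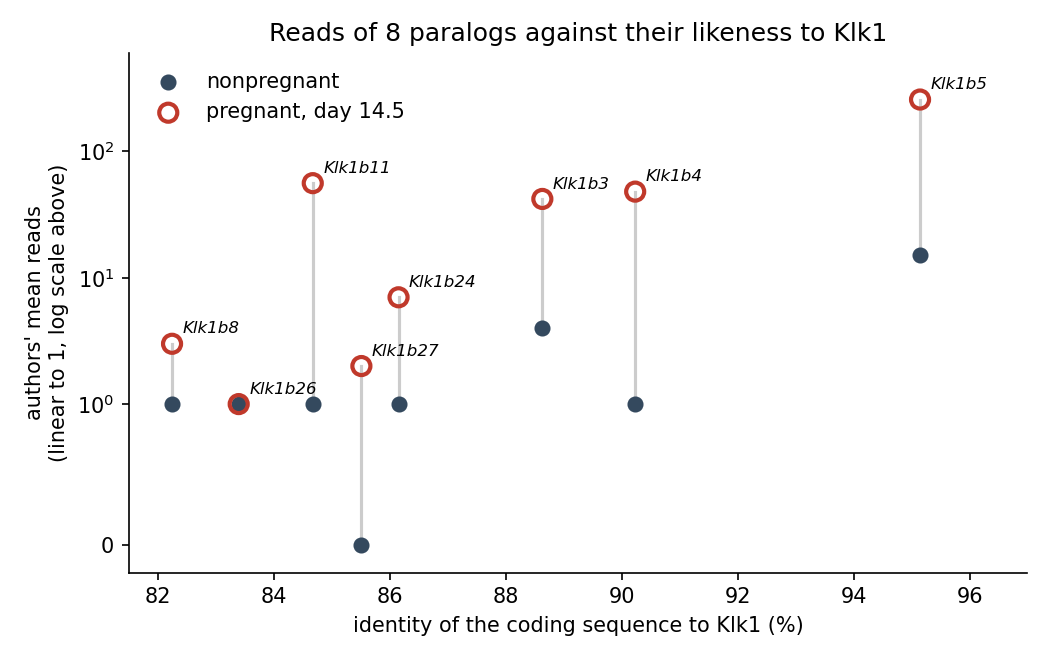
Authors' mean reads (linear up to 1, log scale above) of 8 Klk1 paralogs against the identity of their coding sequence to Klk1 in percent, with filled points for nonpregnant and open points for pregnant islets. Klk1b5, at 95.1%, is highest with 257 reads, but Klk1b11, at 84.7%, exceeds Klk1b24, at 86.2%.

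The windows that the transcripts share show where a read of 1 copy could be taken for another, but they set no bound on how many were. The sources used here do not give the read length, so windows of 50 and 100 bases were taken. Of the 905 windows of 50 bases in Klk1, 28.4% occurred unchanged in another gene of the family, and 68.7% occurred with at most 2 mismatches. At 100 bases these shares fell to 6.08% and 32.5%. The Klk1b5 transcript used had 1391 bases, against 954 in Klk1, so its shares are taken over more windows. Of its 50-base windows, 12.7% occurred unchanged in Klk1 and 40.5% with at most 2 mismatches. The same shares were 10.1% and 22.7% for Klk1b3, 7.85% and 35.8% for Klk1b4, and 6.63% and 21.9% for Klk1b11. Klk1b24, which had 7 pregnant reads, shared 6.88% and 18.6% of its windows with Klk1, close to Klk1b11 with 56. Klk1b11 was picked because its group means differed, so nothing is concluded from this pair either. The longest identical run was 145 bases between Klk1 and Klk1b5, 119 between Klk1b4 and Klk1b5, 103 between Klk1b11 and Klk1 and 92 between Klk1b3 and Klk1b11. The split of reads between these genes is therefore uncertain, and with Klk1 at 14851 reads a small share of misplaced reads would be of the size of the other members' means. How many reads were misplaced was not tested.

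A further gene of the table lies across Klk1. The pseudogene Gm10109 overlaps 2062 bases of the span of Klk1 on the minus strand, but no annotated exon base of Klk1 (0 of 1077). In the authors' deposited table Gm10109 was listed at 4 reads in nonpregnant and 14 in pregnant islets (adjusted p = 0.201), which is small beside Klk1 whichever strand was counted.

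Within 100 kb of the outermost members the annotation held 60 genes, of which 16 were in the table. Apart from the members these were 11 genes, of which 0 passed as higher and 1 as lower in the authors' deposited table, where 4.15% of all genes passed as lower. That gene was Shank1, which encodes a scaffold protein of synapses, at 1233 reads in nonpregnant and 695 in pregnant islets (adjusted p = 0.034 in the authors' deposited table). The neighbour 2410002F23Rik had 4824 and 4739 reads and Clec11a, a secreted lectin gene, 223 and 266 reads in the authors' deposited table, with adjusted p-values of 1.00 and 0.401. The median log2 ratio of the 11 was 0.29. Of these genes Klk1b8, Klk1b24, Klk1b26, Klk1b27, Acp4 and Gm15517 had at most 7 reads in either group. Their ratios enter the median, and so few reads could hardly give a call.

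**Figure D3:**
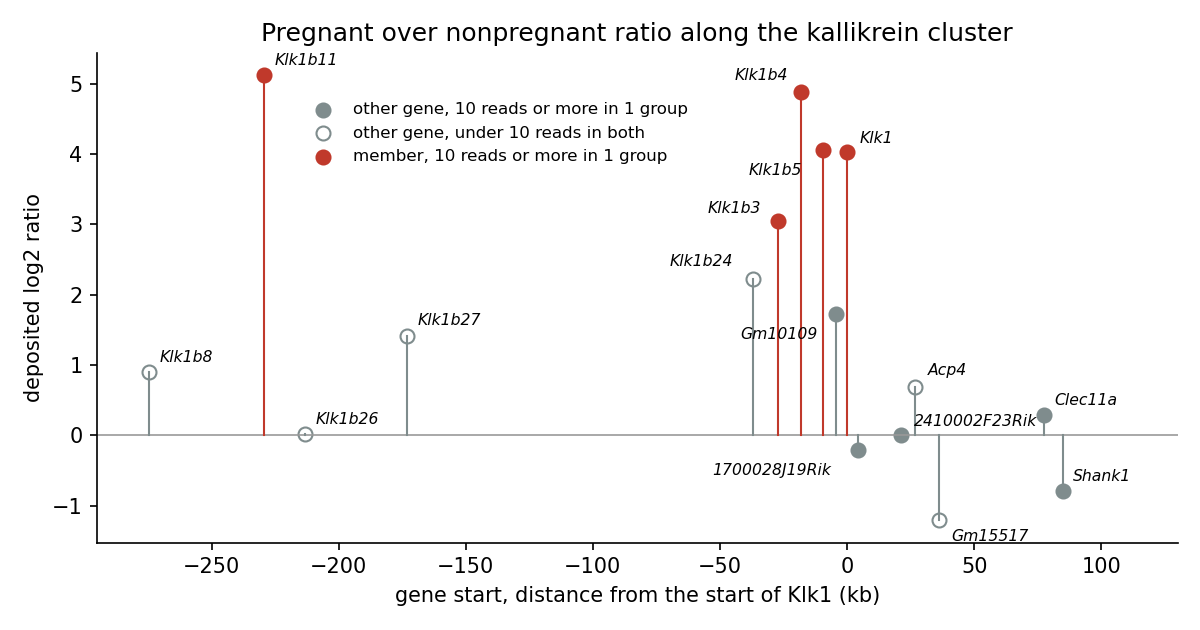
Deposited log2 ratio of the 16 listed genes within 100 kb of the cluster against the distance of each gene start from that of Klk1 in kb, with open points for genes under 10 reads in both groups. The 5 members stand between 3.05 and 5.12, and genes under 10 reads lie between them.

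Upstream sequence was compared because 4 of the members sit next to each other. RefSeq promoter windows of GRCm38.p6, 250 bases before to 50 after each start, were found for all 5 members. In RefSeq the start of Klk1 is annotated further upstream than in the copies. Its last 70 window bases, -20 to 49 from the start, aligned to bases that lie before the RefSeq start in the 4 others. For Klk1b5 the 2 annotations differ: its RefSeq start is 44216474, whereas the GENCODE start given above, 44215945, lies before its aligned stretch. The aligned stretches of the 4 copies are printed, since a block shared by members is easiest to see there, with capitals on the motif CANNTG, the E-box letters.
Klk1b3, chr7:44198118-44198165: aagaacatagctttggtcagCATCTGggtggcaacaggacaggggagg
Klk1b4, chr7:44207323-44207384: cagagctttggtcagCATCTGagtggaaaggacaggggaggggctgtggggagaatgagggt
Klk1b5, chr7:44216361-44216430: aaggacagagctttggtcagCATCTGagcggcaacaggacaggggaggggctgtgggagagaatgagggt
Klk1b11, chr7:43995768-43995835: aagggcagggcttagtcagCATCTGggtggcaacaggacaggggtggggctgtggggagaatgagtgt
Their aligned bases were 77.1% to 88.2% identical to Klk1. CANNTG, which reads the same on both strands, was present in all 5 windows and in 72.3% of 32851 RefSeq windows of 300 bases. TTTAAA, also the same on both strands, was present in the 4 copies and in 13.2% of all windows. In Klk1b4, Klk1b5 and Klk1b11 it begins at -48, -42 and -40, just after aligned stretches that end at -49, -44 and -42. The Klk1 window ends with its aligned stretch, at 49, so the matching bases of Klk1 were not searched. Its absence from that window therefore does not show that Klk1 lacks it. TGGGAA was present on either strand in 4 of 5, all but Klk1b11, and in 25.6% of all windows, and AGGTCA likewise in 4 of 5, again all but Klk1b11, and 16.3%. In these 5 windows 0 matches overlapped a match of another motif. The 4 motifs were chosen after the windows were seen. These matches describe letters in copies of 1 ancestral sequence and say nothing of binding.

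Acinar digestive enzyme genes moved with the kallikreins. Of 39 acinar markers 33 were listed, and 30 passed as higher and 0 as lower in the authors' deposited table. Of all 19940 genes, 7.57% passed as higher and 4.15% as lower. At an adjusted p under 0.01, 9 of the markers passed as higher, where 5.12% of all genes did. The median log2 ratio of the 33 markers was 3.86, and their range was -0.13 to 4.55. The 3 that did not pass under 0.05 were the amylase genes Amy2a4 and Amy2a5 and Bhlha15, a transcription factor gene. The authors' deposited table gives these ratios of 8.42, 14.6 and 0.91, with adjusted p-values of 0.435, 0.109 and 0.768. The summed share of the list was 0.138% of mean reads in nonpregnant and 1.73% in pregnant islets. Among its members Ctrb1, a chymotrypsinogen gene, had 15653 and 226845 reads in the authors' deposited table. The transcription factor genes of the list did not move evenly. Besides Bhlha15 these were Ptf1a with 2 and 67 reads, Rbpjl with 51 and 681 and Nr5a2 with 88 and 148. The authors' deposited table gives Nr5a2 a ratio of only 1.71. Klk1 reads equalled 0.799% of the acinar sum in nonpregnant and 0.979% in pregnant islets, so their proportion to it was somewhat higher in the pregnant group. The log2 ratio of Klk1 was exceeded by 6 of the 33 markers. The part of acinar RNA in the kallikrein ratios was not tested, and reads of whole islets cannot tell more cells of a type from more RNA per cell.

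Markers of other cells had log2 ratios of at most 1.40, and their counts are to be read against the 7.57% of all genes that passed as higher and the 4.15% that passed as lower. Duct markers included 2 higher and 1 lower of 14, with a median log2 ratio of 0.26. Endothelial markers included 0 called of 8 (median -0.01). At an unadjusted p under 0.05 also 0 of these 8 passed, where 12.4% of all genes did as higher and 9.78% as lower. Macrophage markers included 1 higher and 0 lower of 9 (median 0.22), and stromal markers 1 higher and 0 lower of 8 (median -0.22). Beta cell markers, which took 18.9% of mean reads in nonpregnant and 22.2% in pregnant islets, included 2 higher and 1 lower of 10 (median 0.05), and alpha cell markers 0 higher and 3 lower of 6 (median -0.37). All these calls are those of the authors' deposited table.

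Outside the 5 members, the 5 genes with a log2 ratio nearest to that of Klk1, among genes averaging 10 reads or more, were Pla2g1b, Trpm1, Cela3b, Cuzd1 and Serpini2. They differed from Klk1 by -0.01, -0.02, -0.03, -0.04 and 0.05 on the log2 scale, a likeness over 2 group means only. Pla2g1b, a secreted phospholipase gene, Cela3b, an elastase gene, and Cuzd1, a zymogen granule gene, belong to the acinar list.

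The p-values set Klk1 apart from Trpm1, a cation channel gene of the same ratio. In the authors' deposited table Trpm1 had 34 reads in nonpregnant and 547 in pregnant islets, far fewer than Klk1, but p = 2.74e-73 against 0.000298. Cuzd1 had 242 and 3789 reads and p = 0.000297 in the authors' deposited table, almost that of Klk1. Among 76 genes with a log2 ratio of at least 3 that averaged 100 reads or more, 26 were acinar markers, with p from 0.000196 to 0.142 and a median of 0.00114. The members Klk1 and Klk1b5 were in this set too, with p = 0.000298 and 0.00118 in the authors' deposited table. The 48 remaining genes had a median p of 6.50e-16, and 35 of them had a smaller p than Klk1, while 13 did not. These 48 are only genes outside the marker list and the members, and whether acinar genes are among them was not tested. Serpini2, with p = 0.00134 in the authors' deposited table, is 1 of the 48. The spread between samples behind these p-values cannot be read from group means.

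**Figure D4:**
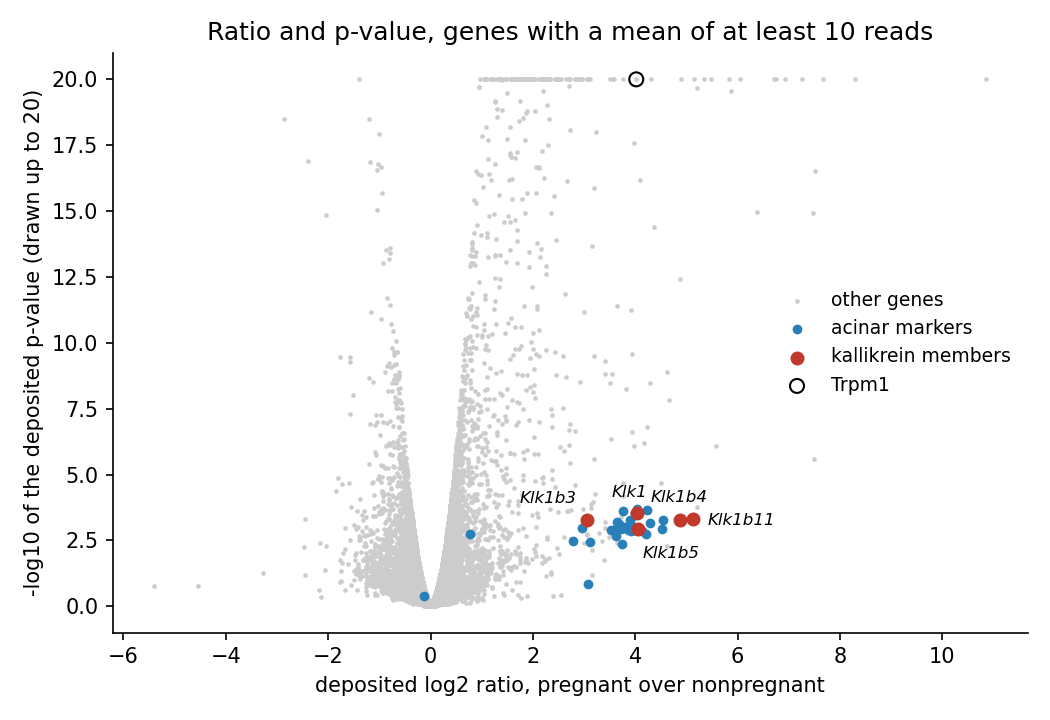
Deposited log2 ratio (pregnant over nonpregnant) against -log10 of the deposited p-value, drawn up to 20, for the 15682 genes averaging 10 reads or more. The 5 members, at log2 ratios from 3.05 to 5.12, lie low together with most acinar markers, while Trpm1, with the ratio of Klk1, lies at the upper edge.

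The remaining kallikrein genes were given by a list of 24 symbols, of which 9 were listed in the table. Of these 0 passed in either direction, where 7.57% of all genes passed as higher and 4.15% as lower. At an unadjusted p under 0.05 also 0 passed, where 12.4% of all genes did as higher and 9.78% as lower. With 9 genes of few reads nothing is read from these counts. The median log2 ratio of the 9 was 0.90, but their summed means were only 26 and 53 reads. Klk14 had 13 reads in nonpregnant and 28 in pregnant islets and Klk8, known as neuropsin, 8 in both groups (adjusted p = 0.429 and 1.00 in the authors' deposited table). Only Klk14 of the 9 averaged 10 reads.

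Genes of kinin release, sensing and breakdown were looked up next. Of 21 genes of the kallikrein-kinin system 19 were listed, and 0 passed as higher or lower in the authors' deposited table (median log2 ratio -0.18). At an unadjusted p under 0.05 there were 2 higher, Xpnpep1 and Prcp, both peptidase genes, and 1 lower, Ace, the gene of angiotensin-converting enzyme, which also breaks down kinins. Over all genes that looser threshold was passed by 12.4% as higher and 9.78% as lower. Kng2, a kininogen gene and so a source of kinin, was listed at 7 reads in nonpregnant and 8 in pregnant islets. The receptor gene Bdkrb2 had 129 and 106 reads (adjusted p = 0.808 in the authors' deposited table), and Bdkrb1, the other bradykinin receptor gene, 2 and 1. Cpe and Cpn1, carboxypeptidase genes, were among those of the list with the most reads, and the authors' deposited table gives them ratios of 0.92 and 1.08. Klkb1, the gene of plasma kallikrein, which also releases kinins, had 36 and 31 reads.

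Among growth factors that kallikreins bind or process, and their receptors, 2 of 6 listed genes passed as higher in the authors' deposited table. Ngfr, the low-affinity neurotrophin receptor gene, had 137 reads in nonpregnant and 1426 in pregnant islets, a log2 ratio of 3.41 and an adjusted p of 8.86e-08 in the authors' deposited table, or 10.6-fold. Egf, the epidermal growth factor gene, had 2099 and 3551 reads, a 1.74-fold difference (adjusted p = 8.13e-07 in the authors' deposited table).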

How the data were processed

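Per the submitters' processing notes, TopHat2 2.0.12, TopHat, Bowtie and HTSeq 0.5.3p3 were used with GRCm38, and their settings are not given in the sources used here. Per the file headers, the authors deposited for each gene a mean of reads per group, a linear fold change (a ratio), its log2 ratio, a p-value and an adjusted p-value. The mean reads summed to 87654449 (pregnant) and 84493872 (nonpregnant), and depth per library was not analysed here. Of 19940 genes, 21 stood on more than 1 line with identical values and were counted once. Benjamini-Hochberg adjustment was recomputed and matched the deposited column within 0.00203.

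In 311 genes with both means at 0, means over 3 libraries fitted the log2 ratio within 0.02 in 311, against 28 for 5 libraries. With the library scaling factors seen there (0.967 to 1.02), whole totals fitted 3991 of 3991 low genes. Coding sequences and transcripts came from GENCODE M21, aligned with Biopython 1.88 and mafft 7.526, and promoters from RefSeq. Functions were tested on simulated data (Python 3.11.15).

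The members and lists were chosen with earlier results of these data known. Named were the members, genes of the kallikrein, kinin, growth factor and neighbour lists with an adjusted p under 0.05 or up to 3 with the most reads, and the 5 genes outside the members nearest to Klk1 in log2 ratio. Bdkrb1, Bdkrb2, Kng2, Klkb1, Ace, Prcp, Xpnpep1, Gm10109, the other Klk1 copies, the named acinar markers and the promoter motifs were added after values or windows were seen. Some genes that the naming rule takes are not reported here.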

Additional observations from a re-analysis of the deposited data

How the results depend on the processing

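Only group means were deposited in the table used here, so refits without single replicates were not run. No paired analysis was possible because the replicate numbers of the samples are not carried by any column of values. A pseudocount of 5 lowered the median log2 ratio of the 5 members from 4.06 to 3.35, since 3 of them have a nonpregnant mean under 5 reads. Leaving acinar markers out of the total changed the members' share of pregnant mean reads from 0.0174% to 0.0177%. At a deposited adjusted p under 0.01, 4 of the 5 members passed, all but Klk1b5, and 9 of the acinar markers in place of 30. At an unadjusted p under 0.05 the kinin genes included 2 higher and 1 lower in place of 0 and 0. The other 26 recomputed counts, medians and shares kept their direction and stayed within 1.5 times the count or within counting error. Of the 25 recomputed log2 ratios of single members, 5 lay outside the counting interval of that member. A pseudocount of 5 moved Klk1b3 from 3.05 to 2.38, Klk1b4 from 4.88 to 3.14 and Klk1b11 from 5.12 to 3.35. Klk1 moved from 4.03 to 3.94 with scaling to total mean reads and to 3.96 with scaling to the total without acinar markers. Few nonpregnant reads limit Klk1b3, Klk1b4 and Klk1b11.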
